A study of Mus musculus with 8 samples.

Results

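The troponin genes were Tnnt1, Tnnt2, Tnnt3, Tnni1, Tnni2, Tnni3, Tnnc1 and Tnnc2, which are 8 of 22238 protein-coding genes in the mm9 annotation. A myogenin or p300 peak was assigned to a troponin gene when any base of it lay within 50 kb of the gene body, and 43 of the 43759 called peaks met this rule. The rule used position only and no measured strength. C2C12 is a mouse myoblast line, labelled here as strain C3H, that fuses into myotubes when serum is lowered. The cells were differentiated for 24 h without bexarotene (Ctl) or with 50 nM of bexarotene, an agonist selective for the retinoid X receptor, added when differentiation was induced (Bex). Chromatin was then immunoprecipitated with antibodies to myogenin or to the histone acetyltransferase p300 and sequenced, with 1 library for each factor and condition. All 4 libraries came from this line in differentiation medium, so no sample of myoblasts in growth medium and none of muscle fibers enters the comparisons.

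Troponin is the calcium switch of the striated muscle thin filament. Troponin T anchors the complex to tropomyosin, troponin I holds back the interaction of actin and myosin, and troponin C binds calcium and relieves that inhibition. Each subunit has forms that belong to fiber types, and several lie in T and I pairs along the chromosome: Tnnt1 and Tnni1 are the slow skeletal forms, Tnnt3 and Tnni2 the fast skeletal forms, Tnnt2 and Tnni3 the cardiac forms, Tnnc1 the slow and cardiac troponin C and Tnnc2 the fast skeletal one. Tnnt2 is also made in differentiating skeletal myoblasts. Myogenin is a basic helix-loop-helix factor that binds E-boxes, and p300 is widely used as a mark of enhancers.

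The sequences that carry the myogenin and p300 results are shown on the plus strand of mm9, in lower case, with E-boxes in capitals. An E-box here is CAGCTG, or CACCTG and its complement CAGGTG, searched on both strands. Shown are the peaks centered within 1 kb of a troponin TSS and, for the other troponin genes, the myogenin peak with most E-boxes in the window, ties going to the peak with more of them near its center and then to the one closer to a troponin TSS. At Tnnt3 all 4 myogenin peaks in the window held 2 E-boxes, and at Tnnc1 the Ctl and Bex peaks tied at 3. They are the Bex myogenin peak upstream of Tnnt1 at chr7:4468081-4468248, the Ctl p300 peak inside Tnnt1 at chr7:4466229-4466387, the central 300 bases of the Bex myogenin peak upstream of Tnnt2 at chr1:137730738-137731037, the Bex myogenin peak in Tnnt3 at chr7:149686033-149686248, the Bex myogenin peak in Tnni2 at chr7:149628065-149628232, the central 300 bases of the Ctl myogenin peak past the end of Tnnc1 at chr14:32025706-32026005, and the Ctl p300 peak in Tnnc2 at chr2:164604526-164604684.
Tnnt1 myogenin Bex: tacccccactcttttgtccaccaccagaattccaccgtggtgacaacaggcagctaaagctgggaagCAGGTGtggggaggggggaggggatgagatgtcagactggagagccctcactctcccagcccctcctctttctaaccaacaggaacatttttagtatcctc
Tnnt1 p300 Ctl: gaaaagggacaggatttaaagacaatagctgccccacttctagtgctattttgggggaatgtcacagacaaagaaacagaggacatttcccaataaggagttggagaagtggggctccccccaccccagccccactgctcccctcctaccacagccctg
Tnnt2 myogenin Bex: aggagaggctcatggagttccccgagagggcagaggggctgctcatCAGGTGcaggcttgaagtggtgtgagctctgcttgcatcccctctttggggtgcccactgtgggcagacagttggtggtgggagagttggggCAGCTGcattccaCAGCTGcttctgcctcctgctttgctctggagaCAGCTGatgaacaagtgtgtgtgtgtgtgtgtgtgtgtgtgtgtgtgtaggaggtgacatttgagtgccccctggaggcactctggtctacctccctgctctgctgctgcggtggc
Tnnt3 myogenin Bex: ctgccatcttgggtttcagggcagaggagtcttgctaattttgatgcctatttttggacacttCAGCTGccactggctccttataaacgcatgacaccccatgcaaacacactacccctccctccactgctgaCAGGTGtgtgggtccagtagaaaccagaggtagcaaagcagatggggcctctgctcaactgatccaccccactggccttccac
Tnni2 myogenin Bex: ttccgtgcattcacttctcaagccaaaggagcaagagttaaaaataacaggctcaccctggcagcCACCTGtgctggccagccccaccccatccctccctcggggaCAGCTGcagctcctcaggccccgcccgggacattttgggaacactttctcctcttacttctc
Tnnc1 myogenin Ctl: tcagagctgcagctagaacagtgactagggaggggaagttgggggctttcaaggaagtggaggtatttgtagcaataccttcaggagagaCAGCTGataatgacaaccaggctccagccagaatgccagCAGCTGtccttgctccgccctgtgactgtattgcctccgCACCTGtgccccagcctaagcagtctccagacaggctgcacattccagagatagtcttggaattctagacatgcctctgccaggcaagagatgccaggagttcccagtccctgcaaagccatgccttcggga
Tnnc2 p300 Ctl: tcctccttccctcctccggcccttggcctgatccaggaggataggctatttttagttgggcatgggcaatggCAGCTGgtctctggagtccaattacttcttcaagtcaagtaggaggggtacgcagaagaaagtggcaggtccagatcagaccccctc
The peak with most E-boxes in the window of Tnni1 was the one printed for Tnnt2, and Tnni3 shared the Tnnt1 peak. The Ctl myogenin peak in Tnni2 covered 119 bases of the Bex peak and is not repeated.

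The lists hold where peaks were called, without tag counts, so they show which sites passed the threshold of its own library and not how strong the binding was. A peak unique to a condition had no overlapping peak in the list of the other condition, which may also reflect the calling threshold, a point that was not tested. With 1 library per condition there was no test between conditions. Shares are given with exact Clopper-Pearson 95% intervals, which cover counting error only, and in a bulk preparation binding in fewer cells cannot be told apart from weaker binding in each cell. The myogenin lists held 5912 (Ctl) and 6642 (Bex) peaks and the p300 lists 22051 (Ctl) and 9154 (Bex), so the p300 Bex list stood apart in size. Of 7 skeletal muscle marker genes, 6 had a Ctl and 5 a Bex myogenin peak within 50 kb, and Ckm, muscle creatine kinase, had a peak in none of the 4 lists. Of 7 genes of other tissues, 1, the keratin gene Krt14, had a Ctl myogenin peak and 0 had a Bex one. For p300, 6 of the 7 skeletal muscle markers had a Ctl and 5 a Bex peak. Of the 7 genes of other tissues, 3 (42.9%) had a Ctl and 0 a Bex p300 peak.

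The 8 genes lay in 5 loci, because the 50 kb windows of Tnni1 and Tnnt2, of Tnnt1 and Tnni3, and of Tnni2 and Tnnt3 overlapped. Paired genes therefore shared peaks and do not count as independent observations. The 3 pairs were separated by 29885 bp, 1922 bp and 54425 bp, respectively, and the 5 windows together spanned 707.76 kb. The Tnni1 and Tnnt2 locus held 15 peaks, the Tnni2 and Tnnt3 locus 13, Tnnc1 10, the Tnnt1 and Tnni3 locus 4 and Tnnc2 1. These windows spanned 169 kb, 174 kb, 142 kb, 120 kb and 103 kb in that order, so the counts are not densities. Slow skeletal Tnni1 and cardiac Tnnt2 sat in the locus with most called peaks, but slow skeletal Tnnt1 and cardiac Tnni3 in the one with 4. Fast skeletal Tnni2 and Tnnt3 sat in the locus with 13 peaks and fast skeletal Tnnc2 in the one with fewest.

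**Figure D1:**
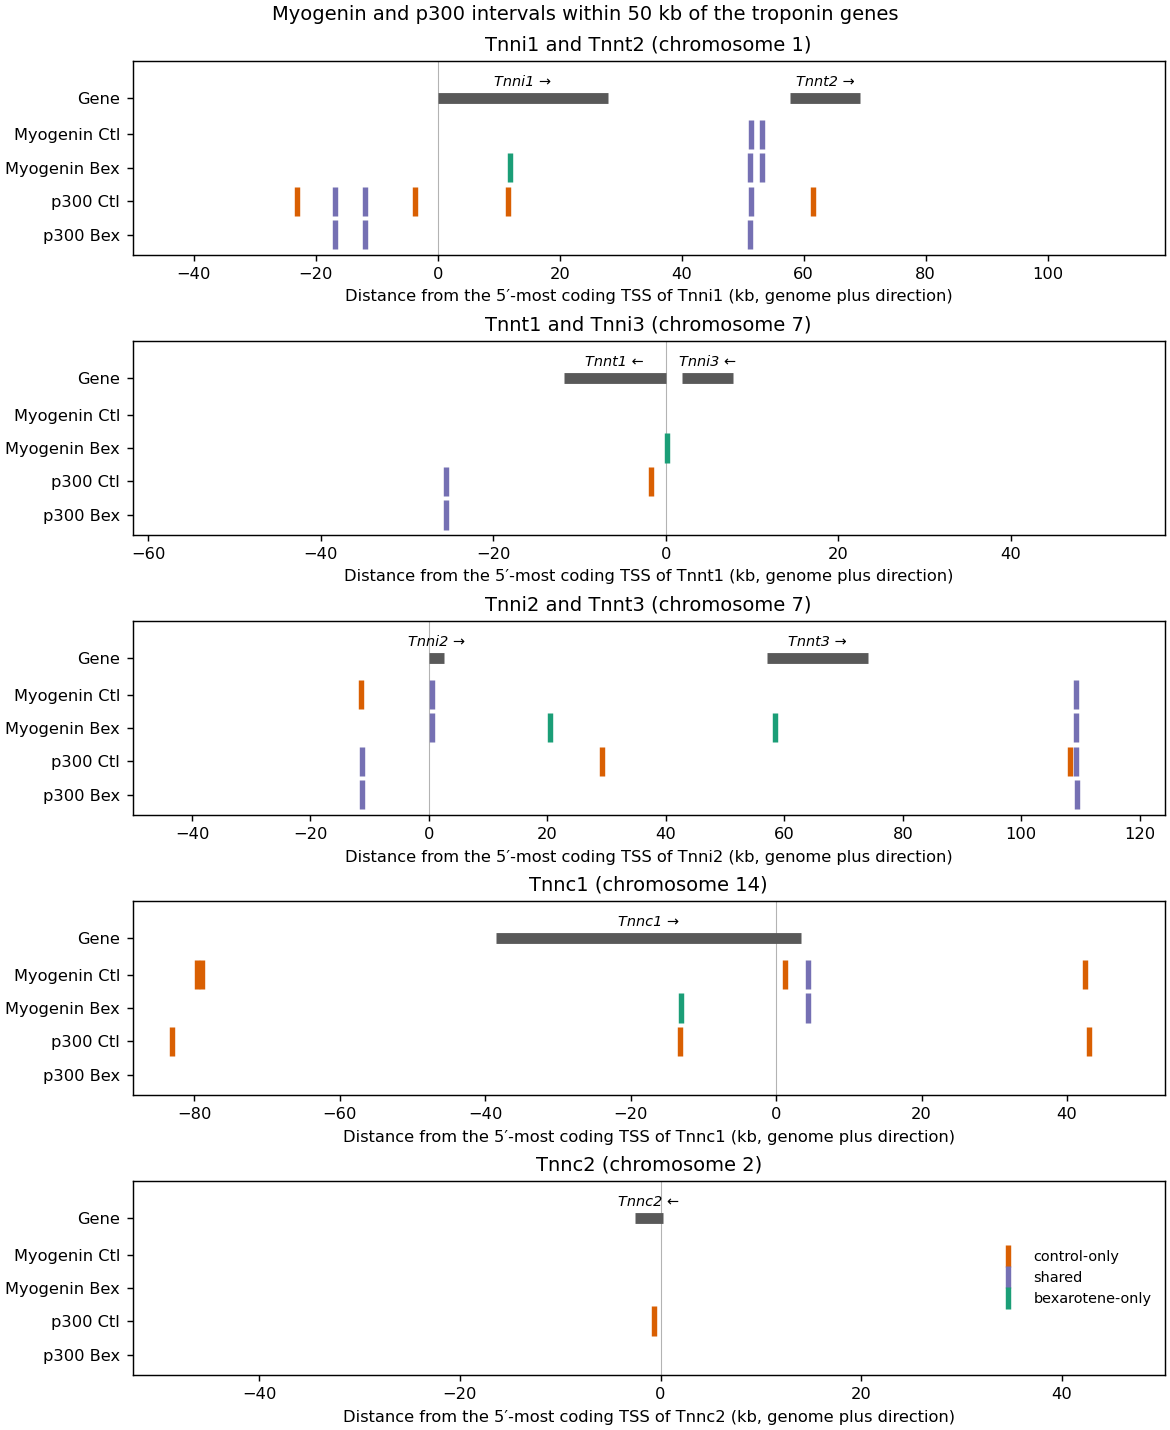
Positions of the called peaks (ticks, drawn at a fixed width) in the 4 lists around the troponin genes (gray bars, arrow in the direction of transcription), as distance in kb from the 5′-most coding TSS of the named gene. Colors give the overlap class: control-only, shared or bexarotene-only. The bexarotene-only myogenin peaks lie at Tnni1, at the 5′ end of Tnnt1, in Lsp1 between Tnni2 and Tnnt3, in Tnnt3 and upstream of the Tnnc1 TSS, and the p300 Bex row holds shared peaks only.

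Per Mb, troponin loci held more peaks of both factors than the genome. The windows held 14.1 Ctl and 14.1 Bex myogenin peaks per Mb, beside 2.23 and 2.50 per Mb of the genome. For p300 they held 24.0 Ctl and 8.48 Bex peaks per Mb, beside 8.31 and 3.45. The windows also held 6 (Tnni1 and Tnnt2), 7 (Tnnt1 and Tnni3), 6 (Tnni2 and Tnnt3), 10 (Tnnc1) and 9 (Tnnc2) protein-coding genes. These densities were not corrected for the number of genes. Myogenin Ctl peaks were within 50 kb of 5 of the 8 genes, where 32.4% of all protein-coding genes had one. Myogenin Bex peaks were near 7 of the 8, all but Tnnc2, where 33.0% of all genes had one. Counting only Bex myogenin peaks longer than the smallest length in the list, 5 of the 8 genes had one, without Tnnt1 and Tnni3, beside 19.3% of all genes. For p300, Ctl peaks were near all 8 genes and Bex peaks near 6, missing Tnnc1 and Tnnc2, where 53.7% and 35.2% of all genes had one. Only 6 of the 17 Ctl and 1 of the 6 Bex p300 peaks had the TSS of a troponin gene as their nearest. The other Bex p300 peaks were nearest to Phlda3, Ppp1r12c, Syt8 or Mrpl23. The median number of peaks per troponin gene was 1.5 and 2 for myogenin (Ctl and Bex) and 2.5 and 1 for p300, and the medians over all genes were 0, 0, 1 and 0. These backgrounds include genes that muscle does not express, and they stand beside only 5 separate loci.

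The overlap classes of the troponin peaks were set beside those of their whole lists. Of the 10 Bex myogenin peaks, 5 were unique to bexarotene (50%, 95% interval 18.7% to 81.3%), and the same share over the whole list was 54.9%. Of the 10 Ctl myogenin peaks, 5 were unique to control (50%, 18.7% to 81.3%), beside 49.4% of the list. The troponin loci therefore gave equal numbers of myogenin regions unique to control, shared, and unique to bexarotene, with 5 of each. This balance rests on the windows: among peaks whose nearest coding TSS was that of a troponin gene, 1 of 5 Ctl peaks (20%) was unique to control and 3 of 7 Bex peaks (42.9%) were unique to bexarotene. By gene the split was uneven, since 7 of 8 troponin genes had a myogenin peak unique to bexarotene (25.2% of all genes) and 2, Tnni2 and Tnnc1, had one unique to control (23% of all genes). The 7 genes rest on 5 peaks. Only those at Tnni1, Tnnt1 and Tnnt3 had the TSS of a troponin gene as their nearest. Among the control-unique peaks only the one in Tnnc1 did. The bexarotene-unique peaks at Tnnt1 and upstream of the Tnnc1 TSS had the smallest length in their list. For p300, 11 of 17 Ctl peaks were unique to control (64.7%, 38.3% to 85.8%; list 67.3%), and 0 of 6 Bex peaks were unique to bexarotene, which allows a share of up to 45.9% and stands beside 20.3% of the list. All 6 p300 peaks called with bexarotene thus overlapped a Ctl peak by at least 1 bp, and with a reciprocal overlap of 50% the one upstream of Tnnt2 became unique (16.7%). Each of these 4 intervals includes the share of its whole list.

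**Figure D2:**
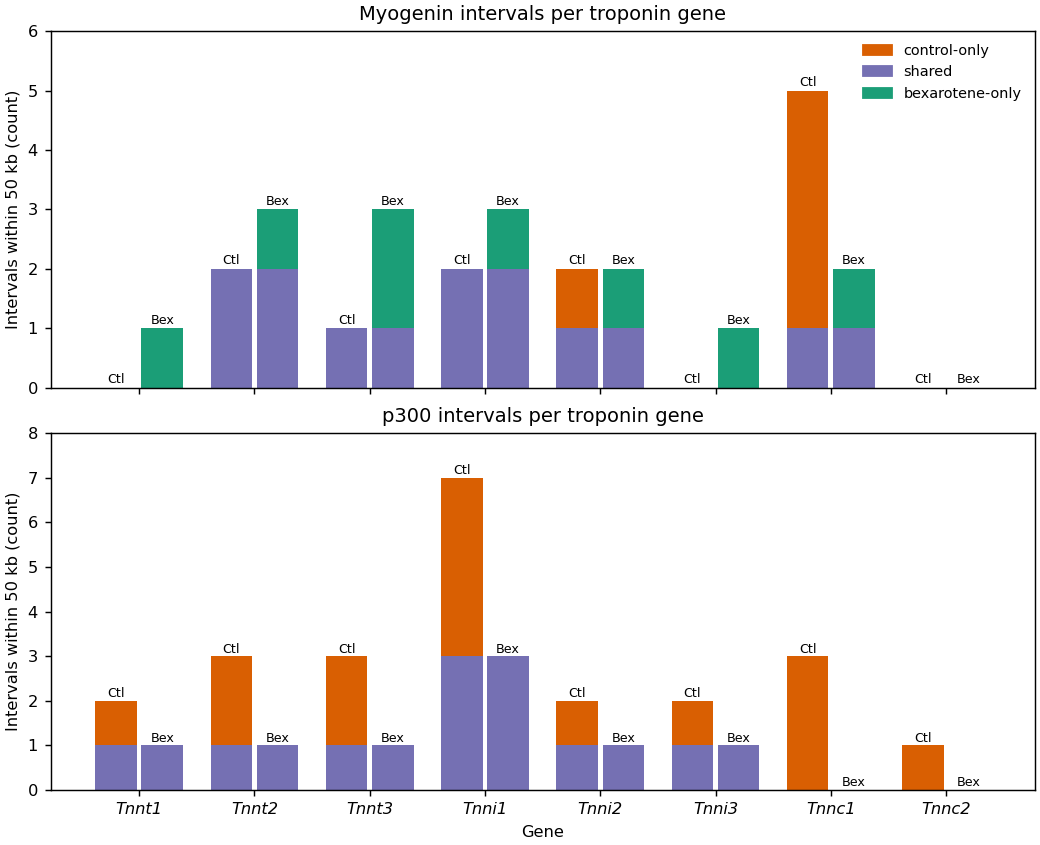
Number of called peaks within 50 kb of each troponin gene, myogenin above and p300 below, with the Ctl list as the left bar and the Bex list as the right bar of each gene and colors for the overlap class. Tnnt1 and Tnni3 have 0 Ctl and 1 Bex myogenin peak, Tnnc1 has 5 Ctl and 2 Bex, and no p300 bar holds a bexarotene-only part.

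Tnnt1, slow skeletal troponin T (chr7:4456172-4467984, minus strand), had a myogenin peak at its 5′ end only with bexarotene. The peak covered chr7:4468081-4468248, began 97 bp outside the gene body, and was centered 180 bp upstream of the most upstream TSS at 4467984 and 558 to 603 bp upstream of the 4 starts between 4467561 and 4467606. No Ctl myogenin peak was called within 399335 bp of it. At 168 bp it had the smallest length in its list, which 50% of the Bex myogenin list and 3 of the 10 peaks near troponin genes, itself included, had. It overlapped no p300 peak, and its 1 E-box, CAGGTG, lay 13.5 bp from the center, as printed in capitals. The Ctl p300 peak at chr7:4466229-4466387 fell in intron 1 of the longest Tnnt1 transcript, 91 bp upstream of an internal TSS at 4466217, and also had the smallest length in its list, 159 bp, a length found in 34.3% of that list and 4 of the 17 peaks near troponin genes. The nearest Bex p300 peak was 23565 bp away. That peak, chr7:4442306-4442663, and its Ctl partner, chr7:4442323-4442583, lay in intron 3 of Ppp1r12c, a myosin phosphatase subunit gene, and were the shared p300 region of the locus.

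Tnni3, cardiac troponin I (chr7:4469907-4475831, minus strand), lies next to Tnnt1 and had the same 4 peaks in its window and none inside its body. The bexarotene-unique myogenin peak lay 1659 bp from the 3′ end of Tnni3 and 5966 bp downstream of its nearest TSS, so it belonged by distance to Tnnt1. Among the troponin genes, Tnni3 and Tnnc2 alone had no myogenin peak with its center within 5 kb of one of their coding starts.

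Tnnt2, cardiac troponin T (chr1:137737452-137748837, plus strand), had shared myogenin peaks in its upstream region. The more distal one was called at chr1:137730811-137731076 in Ctl and chr1:137730728-137731046 in Bex, centered 6509 and 6565 bp upstream of the TSS. It was also called for p300 in Ctl, chr1:137730830-137731076, and in Bex, chr1:137730782-137730939, so all 4 lists overlapped there. The myogenin Bex peak was longer than the Ctl peak by 53 bp, and the p300 Bex peak shorter by 89 bp. The p300 pair overlapped by 110 bp, or 44.5% of the longer peak, and was the one shared pair below a reciprocal overlap of 50%. In the printed sequence the Bex peak held CAGGTG and 3 CAGCTG, with 86, 7 and 27 bases between neighbors, and the Ctl peak held the 3 CAGCTG. The 7 bases between the closest E-boxes hold CATTCC, the complement of the Tead letters GGAATG. The more proximal pair, chr1:137732695-137732909 in Ctl and chr1:137732699-137732909 in Bex, was centered 4650 and 4648 bp upstream with edges within 4 bp of each other, held CAGCTG and CACCTG 57 bases apart, and overlapped no p300 peak. Inside the gene there was a Ctl p300 peak only, in intron 2 at chr1:137741144-137741346, 3793 bp downstream of the TSS, with no E-box and no Bex p300 peak within 10204 bp.

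Tnni1, slow skeletal troponin I (chr1:137679642-137707566, plus strand), had most p300 peaks of the 8 genes, 7 in Ctl and 3 in Bex. Its own myogenin peak was unique to bexarotene, at chr1:137691155-137691740 in intron 2 of the longest transcript, 11805 bp downstream of the most upstream TSS and 4532 bp upstream of the start at 137695979. With 586 bp it was the longest myogenin peak near a troponin gene, and no Ctl myogenin peak was called within 39070 bp. Its E-boxes, CAGCTG and CAGGTG, were 11 bases apart but 214.5 and 231.5 bp from the center, at the edge nearer the downstream starts. A p300 peak unique to control, chr1:137691123-137691281, overlapped its other edge. Upstream of Tnni1, a p300 peak unique to control of 689 bp, chr1:137675496-137676184, was centered 3802 bp from the TSS and held 4 E-boxes, none within 50 bp of its center. A shared p300 region lay 11919 bp (Ctl) and 11982 bp (Bex) upstream. Further upstream were a shared p300 pair across the TSS of Phlda3, with both centers in the UTR of exon 1, and a control-unique peak 6204 bp upstream of that gene. The other 2 Ctl and 1 Bex p300 peaks in the Tnni1 window were those described for Tnnt2.

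Tnni2, fast skeletal troponin I (chr7:149627713-149630315, plus strand), was the one troponin gene with a myogenin peak within 1 kb of a TSS in both conditions. The peaks, chr7:149628114-149628285 in Ctl and chr7:149628065-149628232 in Bex, lay in intron 1 of the longest transcript, 486 and 435 bp downstream of the first TSS and 36 and 87 bp upstream of the start at 149628235. Both had the smallest length of their lists, 172 bp (54.8% of the Ctl list) and 168 bp, both held CACCTG and CAGCTG 35 bases apart, and neither overlapped p300. The Bex peak was placed with both E-boxes within 50 bp of its center and the Ctl peak with 1 of them, at 66.5 and 25.5 bp to the same side. A larger Ctl myogenin peak, chr7:149616061-149616474, lay 11446 bp upstream, held 3 CAGCTG and overlapped the shared p300 region at chr7:149616340-149616498 (Ctl) and chr7:149616372-149616529 (Bex). No Bex myogenin peak was called within 11590 bp of it, although p300 was called there in both conditions. Its nearest TSS was that of Syt8, 4615 bp away.

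Tnnt3, fast skeletal troponin T (chr7:149684741-149701914, plus strand), carried a myogenin peak unique to bexarotene in intron 1 at chr7:149686033-149686248. Its center was 1363 bp from the nearest start at 149684777 and 1399 bp downstream of the start at 149684741, which 7 transcripts use, and 1403 bp upstream of the start at 149687543, which 8 use. It held CAGCTG and CAGGTG 64 bases apart, 41.5 and 28.5 bp on either side of the center, and no p300 peak overlapped it. The interval also lies in intron 1 of Gm14492 on the opposite strand, and the nearest Ctl myogenin peak was 50558 bp away. The pair to which that distance was measured, chr7:149736807-149737239 in Ctl and chr7:149736739-149737181 in Bex, lay 34893 and 34825 bp past the end of Tnnt3 and was the other place where all 4 lists overlapped. Its nearest TSS was that of Mrpl23, a mitochondrial ribosomal protein gene, 18106 bp (Ctl) and 18043 bp (Bex) away. Between Tnni2 and Tnnt3, in intron 1 of Lsp1, a leukocyte-specific protein gene, lay a bexarotene-unique myogenin peak at chr7:149648050-149648333 with 2 CAGCTG 121 bases apart, and a control-unique p300 peak at chr7:149656706-149657004. A further control-unique p300 peak, chr7:149735921-149736134, stood 754 bp from the nearest Bex p300 peak.

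Tnnc1, slow and cardiac troponin C, had most Ctl myogenin peaks of the 8 genes, 5 against 2 in Bex. The annotation carries 2 records under this symbol, which together span chr14:31983021-32024915 on the plus strand. Both coding transcripts start at 32021498, and the long 5′ part comes from the longer record and holds no coding start. A control-unique myogenin peak, chr14:32022588-32022759, lay in intron 1, 1175 bp downstream of the TSS, with 1 CAGCTG 12.5 bp from its center and the nearest Bex peak 2971 bp away. That nearest peak was the shared one past the end of the gene, chr14:32025697-32026014 in Ctl and chr14:32025731-32026010 in Bex, 782 and 816 bp beyond the gene body. It held 3 E-boxes spaced by 33 and 33 bases, as printed, and overlapped no p300 peak. The bexarotene-unique myogenin peak of the locus, chr14:32008269-32008436, was the one Bex myogenin peak with no E-box over its whole length. It lay in intron 3 of Nisch, 13146 bp upstream of the Tnnc1 TSS, and overlapped a control-unique p300 peak, chr14:32008120-32008356. The other 3 control-unique myogenin peaks lay at other genes: 230 and 404 bp from the TSS of 2010107H07Rik and 281 bp from that of Phf7. A control-unique p300 peak, 90 bp from the TSS of Bap1, and another in intron 1 of 2010107H07Rik completed the locus. No Bex p300 peak was called within 90078 bp of Tnnc1. With the shorter Tnnc1 record alone, which drops the peaks near 2010107H07Rik, 37.5% of the Ctl myogenin peaks near troponin genes were unique to control.

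Tnnc2, fast skeletal troponin C (chr2:164602661-164605467, minus strand), had the fewest peaks, with 1 Ctl p300 peak in its intron 1 and no myogenin peak in either condition. The p300 peak, chr2:164604526-164604684, was centered 636 bp downstream of the TSS at 164605241 and had the smallest length of its list. Its printed sequence holds 1 CAGCTG and, upstream of it on the plus strand, ctatttttag, a match to the MEF2 consensus as searched. By the same search 0 of 10 Ctl and 0 of 10 Bex myogenin peaks had a match. The similar letters ttaaaaataa in the printed Tnni2 sequence were not counted. The Tnnc2 peak was the one Ctl p300 peak of 17 with a MEF2 match within 100 bp of the center, beside 0.594% of the list. The nearest myogenin peaks were 88004 bp (Ctl) and 119044 bp (Bex) from the gene, and the nearest Bex p300 peak was 131718 bp away.

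Seen by subunit, troponin T genes each had Bex myogenin peaks (1, 3 and 3 for Tnnt1, Tnnt2 and Tnnt3) and fewer in Ctl (0, 2 and 1). Troponin I genes had 3, 2 and 1 in Bex and 2, 2 and 0 in Ctl (Tnni1, Tnni2 and Tnni3). Tnnc1 had more in Ctl than in Bex, and Tnnc2 had 0 in both. These counts use some peaks more than once. The bexarotene-unique peak counted for Tnnt2 was the one in Tnni1, 45712 bp away, and the myogenin peaks upstream of Tnnt2 were shared and counted for Tnni1 too. The peak in Lsp1 counted for both Tnni2 and Tnnt3, and that of Tnni3 was the Tnnt1 peak. For p300 each of the 8 genes had more Ctl than Bex peaks, and the Ctl list was also the longer one over the genome. Within 1 kb of a coding TSS, 2 of 8 troponin genes had a myogenin peak in either condition, Tnni2 and Tnnt1, where 8.08% of all genes did. Within 5 kb the count was 6, adding Tnnt2, Tnnt3, Tnni1 and Tnnc1, where 12.8% of all genes did. Gene by gene, the outermost peak inside the 50 kb rule lay 46171 bp from Tnnt2, within the body of Tnni1. The first outside lay 53763 bp from Tnni1, and both were Ctl p300 peaks. A window of 100 kb held 34 Ctl p300 peaks in place of 17.

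**Figure D3:**
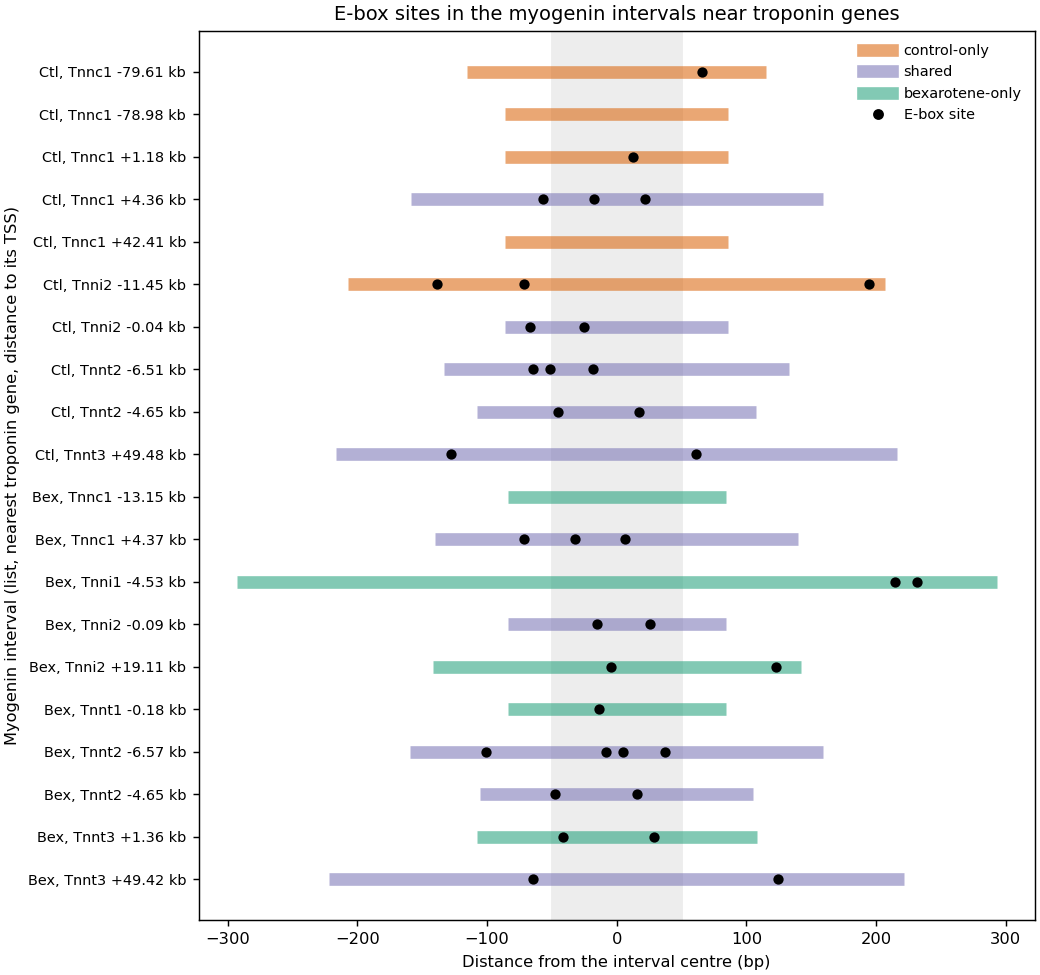
E-boxes (black points) in each of the 20 myogenin peaks near troponin genes, in bp from the peak center, with the peak drawn to scale and colored by overlap class and the 50 bp on either side of the center shaded. Row names give the list, the nearest troponin gene and the signed distance from its TSS. Sites fall in the shaded zone in 7 of 10 Bex and 5 of 10 Ctl peaks, and at Tnni1 both sites lie at 1 edge.

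Of the 20 E-boxes in the Bex myogenin peaks 12 lay within 50 bp of the center in full, and of the 17 in the Ctl peaks 7 did. Within 50 bp of the center, 7 of 10 Bex peaks held an E-box (70%, 34.8% to 93.3%; list 60.3%) and 5 of 10 Ctl peaks did (50%, 18.7% to 81.3%; list 47.6%). Peaks unique to control held one in 1 of 5, the intronic Tnnc1 peak, and those unique to bexarotene in 3 of 5, at Tnnt1, Tnnt3 and Lsp1, beside 27.9% and 52.0% of these classes over the lists. Over their whole length 9 of 10 Bex peaks (55.5% to 99.7%; list 77.2%) and 8 of 10 Ctl peaks (44.4% to 97.5%; list 65.2%) held an E-box. Among the 5 shared regions every peak held at least 2 over its length. Spacings between neighboring E-boxes ran from 7 bases, at Tnnt2, to 260 bases, in the Ctl peak upstream of Tnni2.

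Other consensus letters were counted within 100 bp of the center on both strands. The CACCTG form of the E-box was in 5 of 10 Bex myogenin peaks, at Tnnt1, Tnnt2, Tnnt3, Tnni2 and Tnnc1, beside 30.7% of the list, and in 4 of 10 Ctl myogenin peaks (list 27.8%). It was in 0 of 17 Ctl p300 peaks (up to 19.5%; list 9.12%) and 1 of 6 Bex p300 peaks (list 11.2%). The CAGCTG form was in 7 of 10 Ctl and 7 of 10 Bex myogenin peaks (lists 51.7% and 63.7%), in 7 of 17 Ctl p300 peaks (41.2%, 18.4% to 67.1%; list 26.0%) and in 5 of 6 Bex p300 peaks (83.3%, 35.9% to 99.6%; list 32.1%). The Tead letters GGAATG were in 4 of 10 Ctl myogenin peaks (list 16.6%), all of them shared, and in 3 of 10 Bex myogenin peaks (list 19.1%). They were in 5 of 17 Ctl p300 peaks (29.4%, 10.3% to 56.0%; list 18.7%) and in 4 of 6 Bex p300 peaks (66.7%, 22.3% to 95.7%; list 18.9%). All 6 Bex p300 peaks were shared, while 11 of the 17 Ctl peaks were unique to control. The Ctl and Bex shares thus cover unlike sets of regions. Within the shared p300 pairs, CAGCTG differed only in Ppp1r12c and the Tead letters only past Tnnt3, each found in the Bex peak alone. Of all the motif counts, only CAGCTG and Tead in Bex p300 peaks had an interval that left out the list share. No correction for the number of counts was made. The AP-1 sequence, TGANTCA with C or G as N, was in none of the 10 Ctl or 10 Bex myogenin peaks (lists 10.4% and 12.6%), which allows shares of up to 30.8%, and in 3 of 17 Ctl p300 peaks (list 27.8%). The nuclear receptor core AGGTCA was in none of the 43 peaks (lists 10.8% to 13.6%). This allows shares of up to 30.8% in each myogenin list and up to 19.5% (Ctl) and 45.9% (Bex) for p300, all above the list shares. The 43 peaks also overlap, forming 15 myogenin and 17 p300 regions. The CArG box was in none of the 43 peaks either, and in only 0.896% to 1.11% of the lists. The Runx letters TGTGGT were in 1 of 10 Ctl and 3 of 10 Bex myogenin peaks (lists 25.6% and 29.6%). For p300 they were in 3 of 17 Ctl and 1 of 6 Bex peaks (lists 31.0% and 32.7%). The Sp1 letters GGGCGG were in 2 of 10 Ctl and 2 of 10 Bex myogenin peaks (lists 10.9% and 7.17%). For p300 these were in 2 of 17 Ctl and 2 of 6 Bex peaks (lists 9.59% and 10.9%). The peaks near troponin genes were richer in G and C than their lists: the median over the central 200 bases was 56.8% and 56% for myogenin (Ctl and Bex; lists 51% and 50.5%) and 56% and 60.8% for p300 (lists 47% and 47.5%). The part of base composition in these motif counts was not tested.

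Overlap of myogenin with p300 was counted in each condition. Of the 10 Ctl myogenin peaks 3 overlapped a Ctl p300 peak (30%, 6.67% to 65.2%; list 33.0%), upstream of Tnnt2, upstream of Tnni2 and past Tnnt3. Of the 10 Bex myogenin peaks 2 overlapped a Bex p300 peak (20%, 2.52% to 55.6%; list 25.6%), upstream of Tnnt2 and past Tnnt3. Counting the Ctl p300 list instead gave 4 of 10, because the bexarotene-unique myogenin peaks in Tnni1 and near Tnnc1 overlapped p300 peaks unique to control. Of the 5 myogenin peaks unique to bexarotene 0 overlapped a p300 peak called with bexarotene, which allows a share of up to 52.2%, and 17.3% of this class did so over the list. Seen from p300, 3 of 17 Ctl peaks (17.6%, 3.80% to 43.4%; list 8.79%) and 2 of 6 Bex peaks (33.3%, 4.33% to 77.7%; list 18.5%) overlapped a myogenin peak of the same condition. Each of these intervals includes the share of its list. The myogenin and p300 libraries were sequenced on different instruments and aligned with different tools, so their lists differ in more than the antibody.

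The other thin filament genes, a list of 23 covering actins, tropomyosins, nebulin, tropomodulins, leiomodins and partner proteins, also stood above all genes. Ctl myogenin peaks were near 16 (69.6%) and Bex peaks near 18 (78.3%), and p300 peaks near 16 (Ctl) and 15 (65.2%, Bex). A myogenin peak unique to bexarotene was near 14 of the 23 (60.9%), 7 of 8 troponin genes and 2 of 7 skeletal markers (28.6%). One unique to control was near 9 of the 23 (39.1%), 2 of 8 troponin genes and 4 of these 7 markers (57.1%). A p300 peak unique to bexarotene was near 9 of the 23 (39.1%), 0 of 8 troponin genes and 14.4% of all genes. No test of these shares was made. The troponin count rests on 6 peaks, and the one upstream of Tnnt2 that became unique with a reciprocal overlap of 50% lies in the windows of both Tnnt2 and Tnni1. Lmod3, a leiomodin that nucleates actin filaments, had 5 Ctl and 5 Bex myogenin peaks, and Acta1, skeletal muscle actin, had 4 and 5. Tpm1, a tropomyosin to which troponin T binds, had 15 Ctl and 5 Bex p300 peaks but 0 myogenin peaks in either list, and Tmod3 likewise had p300 peaks only (3 and 2).

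**Figure D4:**
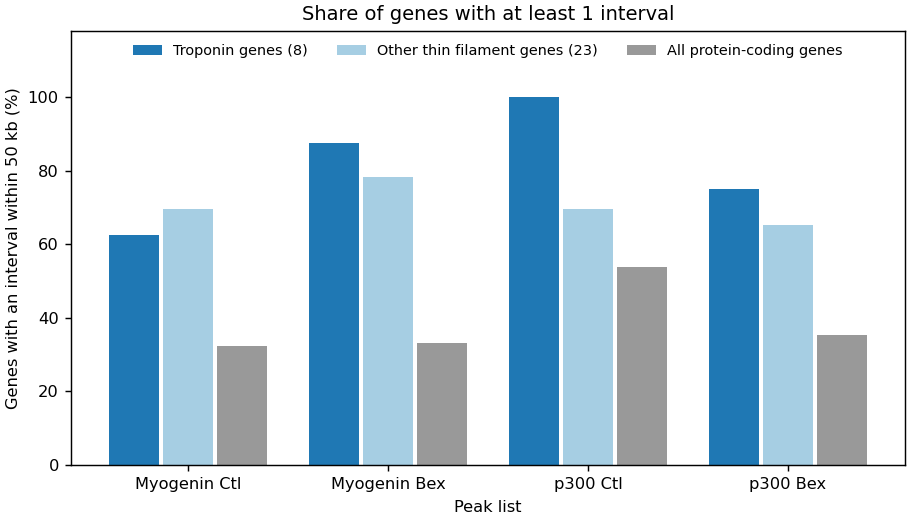
Share of genes (%) with at least 1 called peak within 50 kb of the gene body in each of the 4 lists, for the 8 troponin genes, 23 other thin filament genes and all 22238 protein-coding genes. Troponin genes are at 62.5% and 87.5% for myogenin (Ctl and Bex) and at 100% and 75% for p300, each above the gray bar for all genes.

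The genes with the most similar counts were found from the number of control-unique, shared and bexarotene-unique peaks of each factor, as the sum of absolute differences over 6 counts, among 22188 genes outside the troponin windows. Tnni1 was matched exactly by Clcn5 and Col18a1, and Tnnt3 by Klhl30, Ppp1r12b and Snx8. Tnnt2 was matched by 5 genes, among them Ccny, Fhl2 and Gmpr, and Tnni2 by 11. No gene matched Tnnc1, and 7, among them Bhlhe41, Crat and Fbxo16, differed by 1 peak. For Tnnt1 and Tnni3 82 genes and for Tnnc2 1605 genes had the same counts, so these patterns single out no gene.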

How the data were processed

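Peak positions were the only measurement in the deposited peak lists used here: per the study's methods the authors aligned reads to mm9 with BWA-MEM (myogenin) or Bowtie (p300), removed duplicates with Picard and called peaks per library with HOMER in factor mode. Of 8 samples, the 4 with peak lists were used; input and H3K27me3 libraries were not used here. No depth or tag count was in the lists, so their precision is unknown. Starts counted from 0 and were converted to 1-based positions. Peaks of a factor sharing at least 1 bp were called shared. Genes and coding TSSs (45975 positions) came from GENCODE vM1, where the study used RefSeq, and sequence from the mm9 genome. E-boxes were counted within 50 bp of the peak center. Named were all 8 members, genes in their windows or nearest to a peak, and the genes of most similar counts (ties by symbol). As examples, Ckm and Krt14 were also named from the marker lists, and Lmod3, Acta1, Tpm1 and Tmod3 from the thin filament list. Members and lists were chosen with earlier results of these data known. Kbtbd10 and Kbtbd5 are the annotation's symbols for Klhl41 and Klhl40 of the thin filament list, matched through the RefSeq table. Alternatives were other windows (20 and 100 kb), overlap rules, promoter distances, motif settings, leaving out peaks of the smallest length, and nearest-TSS assignment. Python 3.11.15, pandas 2.3.3, scipy 1.17.1 and pysam 0.24.0 were used, and 7 of 7 functions recovered known answers when tested on simulated data.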

Additional observations from a re-analysis of the deposited data

How the results depend on the processing

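Of 47 alternative values, 46 stayed within the main share's exact interval or within 1.5 times the main count; the exception was the number of troponin genes with a myogenin peak near a TSS, 2 within 1 kb and 6 within 5 kb. With about 10 peaks the exact intervals are wide, so a share that stays within its interval says little about stability. The control-unique myogenin share ran from 20%, when a peak had to lie nearest to a troponin TSS, to 50%. The bexarotene-unique myogenin share ran from 42.9% to 57.1%, and the control-unique p300 share from 54.5% to 83.3%. The bexarotene-unique p300 share was 16.7% with a reciprocal overlap of 50%, where the pair upstream of Tnnt2 no longer counted as shared and 1 of the 6 Bex p300 peaks became unique, and 0 otherwise. The share of Bex myogenin peaks with an E-box ran from 50% (CAGCTG alone) to 90%, and their overlap with p300 from 11.1% (20 kb window) to 40% (Ctl p300 list). Without peaks of the smallest length, 5 of 8 genes had a Bex myogenin peak (19.3% of all genes) in place of 7 (33.0%), since that of Tnnt1 and Tnni3 was dropped. The setting with the shorter Tnnc1 record was chosen after seeing the data. No paired analysis was possible because each condition has 1 library.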
